A study of Arabidopsis thaliana with 15 samples.

Results

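Gen1 nonmemory plants were compared with Gen5 WT plants, groups that both looked normal, to describe which genes and functions make up the difference between them. The members were 3 nonmemory plants of generation 1 and 3 WT plants of generation 5, chosen by their sample labels, or 6 of the 15 plants of the RNA-seq series. All were Arabidopsis thaliana of the Columbia-0 (Col-0) background and carried no MSH1-RNAi transgene, grown on peat mix and frozen at early bolting. Nonmemory (NM) plants were transgene-null progeny of 1 hemizygous MSH1-RNAi plant that showed no altered growth. They are full sibs of the Gen1 memory (MM) plants, the transgene-null progeny that kept the altered phenotype. Gen5 WT plants descend from transformation events that had not taken up the RNAi construct, and each generation of WT was grown alongside the memory plants of its generation. Generation and descent therefore differ together between these groups, and their parts in the differences given here cannot be told apart. The groups of the series went through RNA-seq together, whereas no source used here says whether nonmemory and Gen5 WT plants were grown together. The tissue is whole rosette in the sample labels and whole plants in the methods. The other 9 plants of the series were Gen1 WT, Gen1 memory and Gen5 memory, with 3 of each.

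MSH1, a protein of plastids and mitochondria, takes part in the upkeep of organelle genomes, and its loss alters growth and stress responses. The functions that recur below belong to a few well studied systems. Abscisic acid is a hormone of drought response, bound by PYR/PYL receptors that then block clade A protein phosphatases (PP2C). Cytokinin is a hormone of cell division whose signal induces type-A response regulators, and these in turn dampen the signal. The growing cell wall is remodelled by xyloglucan endotransglucosylase/hydrolases (XTH), which cut and rejoin xyloglucan chains, and by expansins, which loosen the wall, and it also holds arabinogalactan proteins.

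Depth was even, with 77270653 to 79197768 counts on nuclear genes in the 6 plants. MSH1, which lies on chromosome 3 (AT3G24320, 8822924 to 8829728 in the TAIR10.1 build), had 763, 819 and 762 normalized counts in the nonmemory plants and 652, 759 and 738 in the Gen5 WT plants. Normalized counts here are counts scaled to a common depth over all 15 plants. The log2 fold change of MSH1, nonmemory over Gen5 WT as in all values below, was 0.13 (standard error, SE, 0.08, adjusted p = 0.410 by edgeR). No tested marker of rosette leaf, flower, anther, stem or root was called. All 8 rosette leaf markers and all 8 stem and vessel markers were tested. Only 2 of 8 flower, 1 of 7 anther and 2 of 8 root markers held enough counts to be tested. The 8 rosette leaf markers summed to between 1899283 and 2319892 normalized counts in nonmemory and between 1821991 and 2256984 in Gen5 WT plants. The 8 flower markers summed to between 65.8 and 111 in nonmemory and between 102 and 133 in Gen5 WT, with the floral identity genes AP1 and LFY at 0 in the 6 plants. Summed root markers ran from 2142 to 2321 in nonmemory and from 2430 to 2668 in Gen5 WT, while RHD6, RSL4, EXPA7 and PHT1;1 were at 0. The 7 anther markers summed to 358 to 381 against 344 to 427, and the 8 stem and vessel markers to 5418 to 6496 against 4498 to 6362. Most of the anther sum was LAP6, with 373.3, 355.5 and 370.5 in nonmemory against 339.4, 361.4 and 407.1 in Gen5 WT. Most of the root sum came from SCR and SHR, the 2 root markers tested. SCR had 1475, 1575 and 1605 in nonmemory against 1705, 1742 and 1869 in Gen5 WT. SHR had 664.7, 618.1 and 710 against 737.1, 683.9 and 797.5. In the 6 plants WOX5 had at most 6.771 and SHV2 at most 1.88. The part of root material in the differences was not tested. In whole organs, fewer cells of a type and less RNA per cell cannot be told apart.

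In a principal component analysis of the 6 plants, the first component held 45.4% of the variance. Nonmemory plants lay between -18.2 and -12 on it and Gen5 WT plants between 12.3 and 20.6. Both groups were tight, with a median SD between plants, over genes, of 0.0873 on the log2 scale in nonmemory and 0.0789 in Gen5 WT.

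A gene was called different when its edgeR adjusted p-value was under 0.05 and its log2 fold change was beyond 0.5 in either direction. Of 19739 tested genes, 335 (1.7%) were called. In nonmemory plants, 114 genes (0.578%) were higher and 221 (1.12%) were lower. Most differences were small, since the median absolute log2 fold change of the called genes was 0.80, or 1.74-fold. It was over 1 for 100 of them and over 2 for 14, of which 7 were higher and 7 lower. With no demand on size, 672 genes (3.4%) had an adjusted p under 0.05, of which 337 had a change of at most 0.5. The groups did not overlap for any of the 335 called genes, against 25.9% of all tested genes. The called genes were spread evenly over the chromosomes, with 1.48% to 1.92% of the tested genes on each, and 334 of them were protein-coding.

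The size of the set changed when 1 plant was left out. Each such fit also has fewer plants and less power, which was not separated from the influence of the plant left out. Without Gen5 WT replicate 2, edgeR called 115 genes, 22 higher and 93 lower. Without Gen5 WT replicate 1 the total was 211, with 48 higher. The number of higher genes was 74 without nonmemory replicate 2. In fits that each left out 1 plant, 99 of the 335 genes were called every time, 18 higher and 81 lower. The lower set was therefore retained more often than the higher set, although the difference between these shares was not tested.

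**Figure D1:**
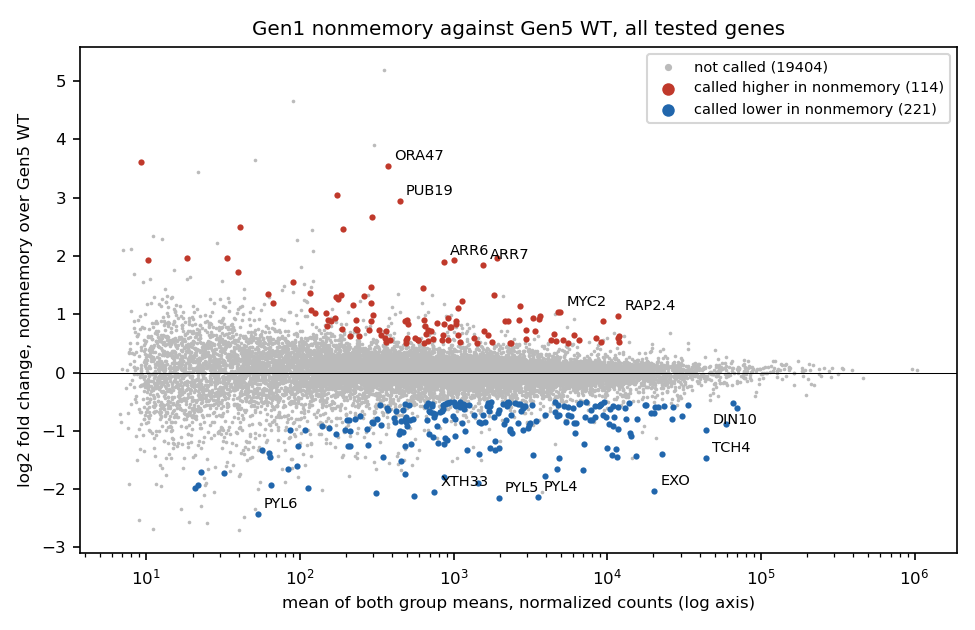
Log2 fold change of nonmemory over Gen5 WT (vertical axis) against the mean level of the gene in normalized counts (horizontal log axis), with 1 point for each of the 19739 tested genes. The 114 genes called higher are red, the 221 called lower are blue and the others grey, and most called genes lie within a log2 fold change of 1 of the zero line.

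The genes called lower took 1.1% to 1.24% of all nuclear counts in the nonmemory plants and 2.00% to 2.04% in the Gen5 WT plants. The genes called higher took 0.334% to 0.350% in nonmemory and 0.196% to 0.202% in Gen5 WT. These shares follow from how the genes were chosen and are given as a description. Gen1 WT plants, which had no part in the choice, had 0.851% to 1.19% on the lower genes and 0.317% to 0.338% on the higher genes, close to nonmemory and apart from Gen5 WT. Gene by gene, the mean level in Gen1 WT lay nearer to nonmemory than to Gen5 WT for 85 of the 114 higher genes (74.6%) and for 165 of the 221 lower genes (74.7%). Over all tested genes this share was 53.6%. For 44 of the higher and 101 of the lower genes, the Gen1 WT mean lay past nonmemory, on the side away from Gen5 WT. That count was not taken over all tested genes. In Gen1 memory plants the lower genes took 0.415% to 0.520% of counts and in Gen5 memory plants 0.426% to 0.545%, below all 9 WT and nonmemory plants.

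**Figure D2:**
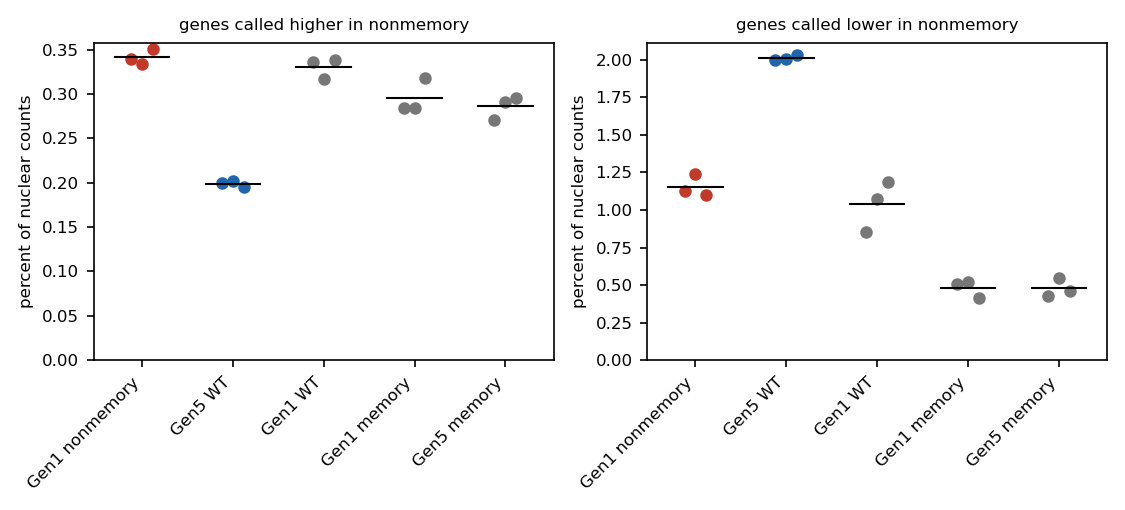
Share of nuclear counts, in percent, taken by the 114 genes called higher (left) and the 221 called lower (right) in each of the 15 plants, with 1 point per plant and a line at the mean of each group of 3. The genes were chosen on the nonmemory and Gen5 WT plants, and the Gen1 WT plants lie with nonmemory, at 0.317% to 0.338% on the left and 0.851% to 1.19% on the right.

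Among the largest falls were 3 receptors for abscisic acid. PYL4 (AT2G38310, chromosome 2 from 16049918 to 16051356) had 1281, 1435 and 1207 normalized counts in the nonmemory plants and 5771, 6577 and 4942 in the Gen5 WT plants. It was 4.4-fold lower in nonmemory (log2 fold change -2.14, SE 0.11, adjusted p = 0.00038), and the highest nonmemory plant lay far below the lowest Gen5 WT plant. PYL5 (AT5G05440, chromosome 5 from 1608988 to 1610527) had 553, 970 and 630 in nonmemory against 3407, 3464 and 2753 in Gen5 WT. Its log2 fold change was -2.16 (SE 0.20, adjusted p = 0.00295). PYL6 (AT2G40330), at a low level, had 18.8, 17.4 and 13.5 against 110, 106 and 54.0 (log2 fold change -2.43, SE 0.34, adjusted p = 0.0125). PYL4, PYL5 and PYL6 are close relatives within the receptor family. Of 9 tested PYR/PYL receptors these 3 were called, and the other 6 had log2 fold changes between -0.33 and 0.21. PYR1 was at the lower end, with 3718, 3653 and 3429 against 4507, 4603 and 4530, an adjusted p of 0.0123 and a change too small to be called. The family, like the others described by family here, was chosen after its values had been seen. PYL4 and PYL5 kept their call whichever plant was left out, whereas PYL6 was not called without Gen5 WT replicate 2 (log2 fold change -2.29). In Gen1 WT plants PYL4 had a mean of 1689 and PYL5 of 1247, between the levels of both groups and nearer to nonmemory.

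The list of abscisic acid and drought genes, 51 tested, had 4 genes higher and 5 lower (17.6% called against 1.7% of all genes), and a median log2 fold change of 0.06 beside 0.01 over all tested genes. The lower genes, besides the receptors, were ERD5, the proline dehydrogenase that starts proline breakdown, and LTI65 (RD29B), a drought and cold marker. Those higher were NCED5, ATAF1, RD26 and ABI1. NCED5, an enzyme of the step that commits carotenoids to abscisic acid, had 44.2, 57.2 and 59.0 in nonmemory against 8.88, 15.2 and 16.7 in Gen5 WT (log2 fold change 1.97, SE 0.31). The NAC transcription factors ATAF1 and RD26 both had a log2 fold change of 0.94. ABI1, a PP2C phosphatase that the receptors inhibit, had 4622, 4969 and 5777 in nonmemory and 3545, 3435 and 3528 in Gen5 WT (log2 fold change 0.55, SE 0.08, adjusted p = 0.0129). All 7 tested clade A phosphatases had positive values, with a median of 0.21, and ABI1 was the one called. Calls on this list were fewest without Gen5 WT replicate 2, with 0 higher and 4 lower, and 2 were higher without nonmemory replicate 2 or 3. NCED5 was not called without either of these or without Gen5 WT replicate 1 or 2 (log2 fold changes of 1.74 to 2.06). ABI1 was also not called without nonmemory replicate 3 (log2 fold change 0.46). TMAC2 (AT3G02140), a negative regulator of abscisic acid response that was not on the list, had 88.4, 163 and 112 against 521, 518 and 487 (log2 fold change -2.07, adjusted p = 0.00349). XERICO, a RING protein whose overexpression raises abscisic acid, was higher by 0.89 on the log2 scale. XERICO, ATAF1 and RD26 were not called without Gen5 WT replicate 2 (0.81, 0.89 and 0.92), nor was ATAF1 without nonmemory replicate 2 (0.95).

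The list of touch and growth-rate genes, 31 tested, had 2 genes higher and 9 lower, or 35.5% called, and a median of -0.26. Of its tested members, 11 lay above 0 and 20 below. The lower genes were EXO, EXL5, EXL3, TCH4, XTH24, XTH16, XTH15, XTH30 and XTH9, and the higher ones EXP3 and EXPA4. All are EXO, XTH or expansin genes that are counted again by family below, so these counts are not separate. Without nonmemory replicate 3 or Gen5 WT replicate 2 the list had 7 lower, and 1 was higher in each fit that left out a plant other than Gen5 WT replicate 3. EXO (AT4G08950, chromosome 4 from 5740219 to 5741591), an extracellular protein of the brassinosteroid growth response, had 5778, 11824 and 6307 normalized counts in nonmemory against 34031, 29566 and 34126 in Gen5 WT. The nonmemory plants differed by about a factor of 2 among themselves, yet all lay well below Gen5 WT (log2 fold change -2.03, SE 0.25, adjusted p = 0.00765). In Gen1 WT plants EXO had a mean of 10222, nearer to nonmemory. Its relatives EXL5 and EXL3 fell by 1.03 and 0.79, and PHI-1 had a value of -1.46 that missed the threshold (adjusted p = 0.0572). All 6 tested members of the family had values below 0, with a median of -0.91, and the 3 calls held whichever plant was left out.

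Of 23 tested XTH enzymes, 8 were lower and 1 was higher, and the median was -0.51. XTH33 (AT1G10550, chromosome 1 from 3479066 to 3481041) had 271, 311 and 295 in nonmemory against 1155, 968 and 1503 in Gen5 WT (log2 fold change -2.05, SE 0.16, adjusted p = 0.00204). TCH4, the touch-induced XTH22, had 16642, 32733 and 20284 against 70779, 59342 and 63108. Its log2 fold change was -1.47 (SE 0.22, adjusted p = 0.0155), with a gap between the groups larger than the spread within either. In Gen1 WT plants TCH4 had a mean of 23720 and XTH33 one of 192, nearer to nonmemory than to Gen5 WT. XTH24, XTH16, XTH15, XTH30, XTH9 and EXGT-A3 (XTH27) were lower by between 1.32 and 0.59 on the log2 scale. XTH31 went the other way, with 259, 375 and 480 in nonmemory against 176, 116 and 158 in Gen5 WT (log2 fold change 1.31, SE 0.25, adjusted p = 0.0325). The call of XTH31 was lost without any one of 5 of the 6 plants, all but nonmemory replicate 1, with log2 fold changes between 1.08 and 1.44. TCH4 was not called without nonmemory replicate 3 (-1.38) or Gen5 WT replicate 2 (-1.53). The family as a whole had 6 lower without either of these plants.

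Some proteoglycans of the wall were lower and most were not called. FLA9 (AT1G03870), a fasciclin-like arabinogalactan protein, had 6243, 6318 and 5862 in nonmemory and 15309, 17390 and 17918 in Gen5 WT (log2 fold change -1.46, SE 0.07, adjusted p = 0.000304). FLA13 and FLA2 had values of -0.97 and -0.73, and these 3 were called of 14 tested, a family whose median was -0.01. Among 24 tested arabinogalactan proteins 6 were lower and none higher, from AGP7 at -1.23 to AGP12 at -0.51, and the median of the family was -0.17. That count was 3 without nonmemory replicate 2 and 3 without Gen5 WT replicate 2, and the AGP10, AGP17 and AGP18 calls held whichever plant was left out. LRX3, an extensin-like protein that binds RALF peptides, had 36365, 48520 and 39000 against 78502, 74109 and 77292 (log2 fold change -0.89, adjusted p = 0.00656). The RALF peptide gene RALFL33 was lower by 0.82 and the wall-sensing receptor kinase THE1 by 0.56, both with groups that did not overlap. Enzymes that build or trim wall polysaccharides were also among the lower genes, including the galactan synthase GALS1 (-0.89), the bifunctional xylosidase BXL1 (-0.80) and the xyloglucan xylosyltransferase XT1 (-0.72). LRX3, RALFL33, THE1 and these enzymes were named after their values were seen, and of these only BXL1, without Gen5 WT replicate 2 (-0.77), and XT1, without nonmemory replicate 3 or Gen5 WT replicate 1 or 2 (-0.77 to -0.70), lost their call in a fit without 1 plant.

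Some alpha-expansins were higher in nonmemory plants. Of 14 tested, 4 were called higher and none lower, and the median was 0.44. EXPA4 (AT2G39700) had 2130, 1678 and 2112 in nonmemory against 1155, 1300 and 1150 in Gen5 WT (log2 fold change 0.72, SE 0.10, adjusted p = 0.0121). EXPA15, EXP3 (EXPA3) and EXPA6 had log2 fold changes of 1.33, 0.91 and 0.54. EXPA4 was called whichever plant was left out, while the family had 1 call without Gen5 WT replicate 1 and 1 without replicate 2. It had 2 calls without nonmemory replicate 1 and 2 without nonmemory replicate 3. GH9C2, an endoglucanase of the wall, had 3718, 3333 and 4045 against 1516, 1713 and 1834 (log2 fold change 1.13, SE 0.09, adjusted p = 0.00204). Pectin lyase-like proteins, grouped by product name after the values were seen, had 3 higher and none lower of 39 tested (7.69% called against 1.7% of all genes).

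**Figure D3:**
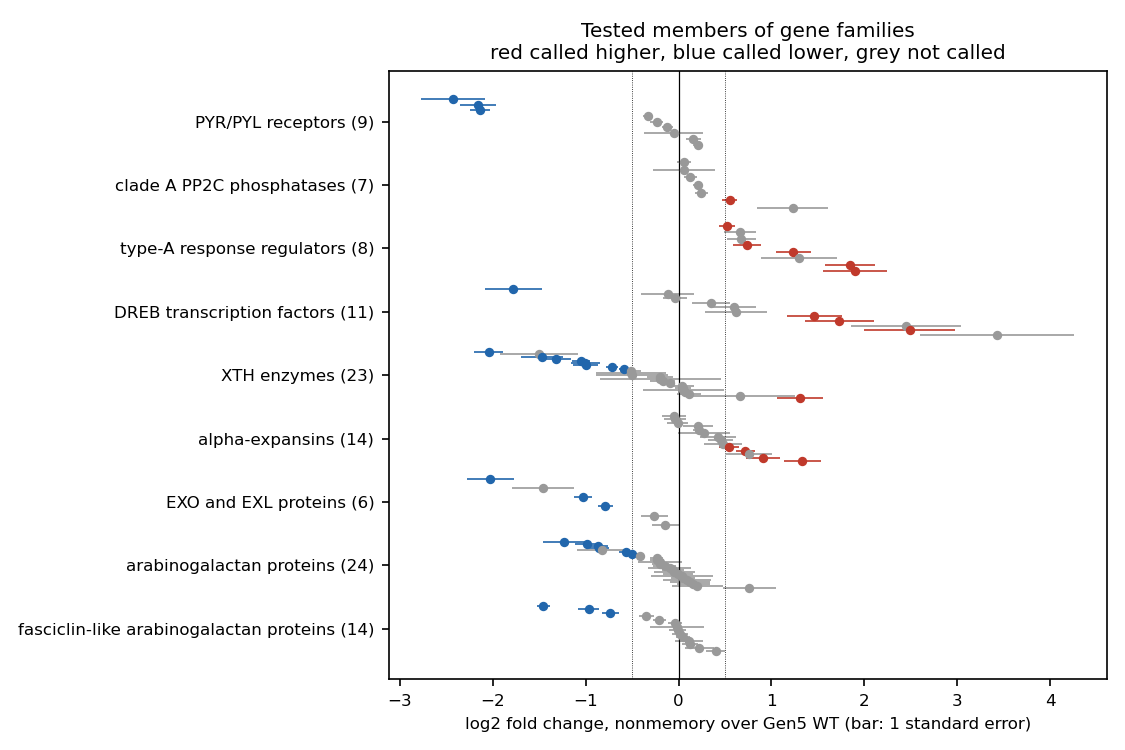
Log2 fold change of nonmemory over Gen5 WT for each tested member of 9 gene families, with bars of 1 SE and dotted lines at 0.5 either side of 0. Red members were called higher, blue called lower and grey not called, with 5 of 8 type-A response regulators red and 8 of 23 XTH enzymes blue.

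Type-A response regulators of the cytokinin pathway were among the genes called higher. ARR6 (AT5G62920, chromosome 5 from 25252007 to 25254318) had 1285, 728 and 2059 normalized counts in nonmemory and 300, 354 and 436 in Gen5 WT (log2 fold change 1.90, SE 0.34, adjusted p = 0.0276). ARR7 (AT1G19050, chromosome 1 from 6577833 to 6579314) had 2266, 1555 and 3495 against 566, 694 and 778 (log2 fold change 1.84, SE 0.27, adjusted p = 0.0143). In both genes nonmemory replicate 2 was the lowest and replicate 3 the highest nonmemory plant, and the groups did not overlap. ARR5 (AT3G48100) had 1559, 1173 and 2072 against 713, 730 and 600, with a log2 fold change of 1.24. RR3 (AT2G41310, also named ARR8) and ARR4 were higher by 0.74 and 0.52. Values for ARR15, ARR9 and ARR16 were 1.29, 0.68 and 0.66 and missed the threshold. Thus 5 of 8 tested type-A regulators were called and all 8 had values above 0, with a median of 0.99. The wider cytokinin list, 40 tested, had these 5 and the transcription factor CRF5 higher and none lower, while its median was 0.00. Many of these calls were lost when 1 plant was left out. Without Gen5 WT replicate 1, and again without Gen5 WT replicate 2, edgeR called 0 of the 8, although ARR6 still had log2 fold changes of 1.78 and 1.89 there. Without nonmemory replicates 1 and 3 the calls were 2 and 3, and without nonmemory replicate 2 they were 6. DESeq2 called all 8. UGT76C2, which glucosylates cytokinin, was higher (0.80), while UGT85A1, which glucosylates a form of cytokinin too, was lower (-1.15). Both were named after their values were seen. UGT76C2 was called in 1 of the 6 fits that left out a plant, that without nonmemory replicate 2 (0.60 to 0.85 in the others), and UGT85A1 in all but those without nonmemory replicate 2 (-1.12) or Gen5 WT replicate 2 (-1.17). In Gen1 WT, RR3 had a mean of 809 and ARR16 one of 288, nearer to nonmemory than to Gen5 WT, while the other 6 tested regulators were nearer to Gen5 WT. Gen1 WT plants had 77.2, 93.9 and 77.0 for ARR6, below Gen5 WT, and 826, 807 and 808 for ARR7, just above it.

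**Figure D4:**
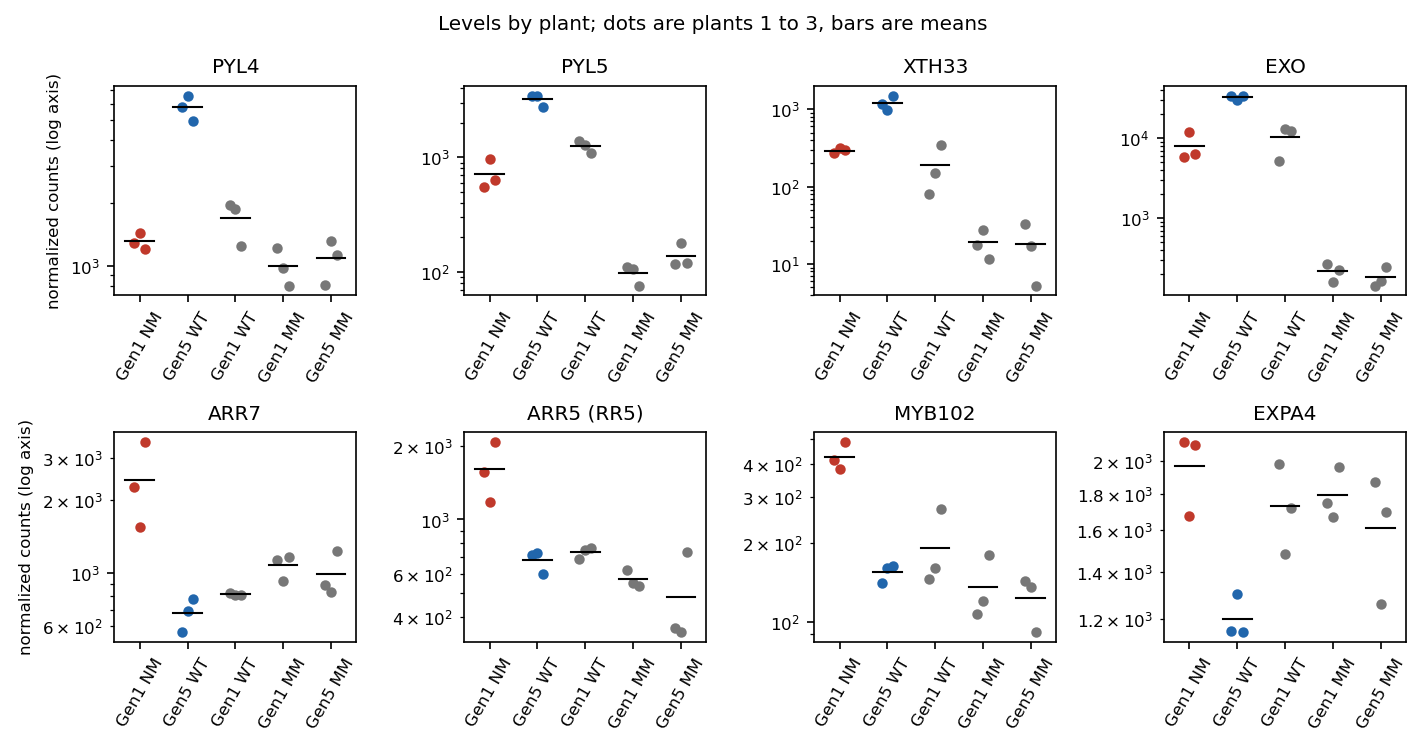
Levels in normalized counts (log axes) of 8 genes in each of the 15 plants, with 1 point per plant and a bar at each group mean (NM nonmemory, MM memory). PYL4, PYL5, XTH33 and EXO (top) are lower and ARR7, ARR5, MYB102 and EXPA4 (bottom) higher in Gen1 NM than in Gen5 WT, with no overlap, and Gen1 WT lies nearer to Gen5 WT for ARR7, ARR5 and MYB102.

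Several of the 12 largest rises varied strongly between nonmemory plants. ORA47 (AT1G74930), an AP2/ERF factor that activates jasmonate synthesis genes, had 227, 1041 and 803 in nonmemory against 82.9, 65.5 and 29.4 in Gen5 WT (log2 fold change 3.54, SE 0.59, adjusted p = 0.0200). PUB19, a ubiquitin ligase of drought response, had 357, 482 and 1534 against 79.9, 126 and 102 (log2 fold change 2.94, SE 0.55, adjusted p = 0.0322). The unnamed AP2/ERF factor AT4G28140 had 273, 393 and 858 against 99.7, 79.7 and 60.8, a log2 fold change of 2.67. For these genes the nonmemory plants spread over about a factor of 3 to 5, while no nonmemory plant fell within the Gen5 WT range. ORA47 was not called without nonmemory replicate 2 (3.12), nonmemory replicate 3 (3.42), Gen5 WT replicate 1 (3.86) or Gen5 WT replicate 2 (3.62). PUB19 was not called without nonmemory replicate 2 (3.21) or without Gen5 WT replicate 1 (2.79), 2 (3.12) or 3 (2.94). AT4G28140 was not called without Gen5 WT replicate 1 (2.85) or 2 (2.66). In Gen1 WT, ORA47 had 1259, 1063 and 1686, above both groups.

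The other large rises included RTFL12, a small peptide gene of the ROTUNDIFOLIA-like family (log2 fold change 3.05), DIP2 (2.46) and the heat shock transcription factor HSFC1 (1.92). The MYB factors MYB102 and MYB74 had 1.47 and 1.36. RTFL12, DIP2, HSFC1 and MYB74 each lost their call in 3 or more of the 6 fits that left out a plant, with log2 fold changes of 2.53 to 3.1, 2.05 to 2.72, 1.89 to 1.96 and 1.27 to 1.43 in those fits. MYB102 was even among the nonmemory plants, with 414, 384 and 486 against 141, 160 and 164 in Gen5 WT (SE 0.13, adjusted p = 0.00295), and its call held whichever plant was left out. AT3G04650, annotated as an FAD/NAD(P)-binding oxidoreductase, had 3171, 2224 and 3738 against 826, 838 and 676 (log2 fold change 1.97, SE 0.18, adjusted p = 0.00295) and 2624, 2840 and 2572 in Gen1 WT. Its call too held whichever plant was left out. HSFA6B (AT3G22830), the called gene with the largest fold change, was at a low level, with 13.2, 16.5 and 22.2 against 1.97, 0.949 and 0.981 (log2 fold change 3.62), and it was not called without Gen5 WT replicate 2 (3.45).

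DREB factors, AP2/ERF proteins that bind the drought and cold element, had 3 members higher and 1 lower of 11 tested, with a median of 0.62. DREB2A, which also acts in heat response, had 524, 1254 and 999 in nonmemory against 379, 366 and 266 in Gen5 WT (log2 fold change 1.46, SE 0.30, adjusted p = 0.0415). CBF1 and DREB1A (CBF3), the cold regulators, had log2 fold changes of 2.49 and 1.73 at low levels, with no plant of either group over 108 normalized counts. CBF2 and CBF4 had values of 2.45 and 3.43 that missed the threshold, at adjusted p = 0.0687 and 0.0684 in edgeR. The lower one was DREB26, with 1140, 2859 and 1365 against 6988, 5760 and 5679 (log2 fold change -1.78, SE 0.31, adjusted p = 0.0237). No DREB call held in all 6 fits that left out a plant. The family had 5 higher and 1 lower without nonmemory replicate 1, 0 higher without nonmemory replicates 2 or 3 or Gen5 WT replicates 1 or 2, and 1 higher and 1 lower without Gen5 WT replicate 3. The cold list, 33 tested, had 2 higher and 2 lower, and its lower members were DIN10 and LTI65 rather than regulators. None of this list was higher without nonmemory replicate 2 or 3 or Gen5 WT replicate 1 or 2. LTI65 was not called without nonmemory replicate 1 or 2 or Gen5 WT replicate 2 (-0.81 to -0.71). Rapid stress genes, 50 tested, had ORA47 higher and DREB26, WRKY18 and WRKY26 lower, with a median of 0.16. WRKY18, a regulator of pathogen response, had 6252, 10887 and 7767 against 25548, 22614 and 19039 (log2 fold change -1.43, SE 0.19, adjusted p = 0.0109). Without nonmemory replicate 1 this list had 8 higher and 2 lower, without Gen5 WT replicate 2 it had none, and without the other plants it had 1 to 4. WRKY18 was not called without Gen5 WT replicate 2 (-1.42). WRKY26 was not called without any 1 nonmemory plant or Gen5 WT replicate 1 or 2 (-0.56 to -0.43).

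On the jasmonate list, 41 tested, 1 gene was higher and 4 were lower. The higher one was MYC2, the central transcription factor of the pathway, with 4959, 7378 and 7510 in nonmemory and 3450, 3610 and 2630 in Gen5 WT (log2 fold change 1.04, SE 0.17, adjusted p = 0.0207). CYP94C1, an enzyme that oxidises and so inactivates the active hormone, had 138, 314 and 169 against 1062, 840 and 795 (log2 fold change -2.12, SE 0.28, adjusted p = 0.00950). The hydroxyjasmonate sulfotransferase ST2A, the tyrosine aminotransferase TAT3 and the repressor JAZ6 were lower by 1.60, 0.85 and 0.77. CYP94C1 and JAZ6 kept their calls whichever plant was left out. MYC2 was not called without nonmemory replicates 2 or 3 (0.95 and 0.94) or Gen5 WT replicates 1 or 2 (1.09 and 1.12). ST2A was not called without any 1 nonmemory plant or Gen5 WT replicate 1 (-1.65 to -1.31). TAT3 was not called without any 1 nonmemory plant or Gen5 WT replicate 1 or 2 (-0.92 to -0.63). The list had 3 higher and 2 lower without nonmemory replicate 1, and 2 lower without nonmemory replicate 2 or 3 or Gen5 WT replicate 1.

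Some genes of sugar starvation and amino acid breakdown were lower. The sugar starvation list, 41 tested, had 0 higher and 3 lower, with 30 members below 0 and a median of -0.08. DIN10 (AT5G20250), a raffinose synthase family gene induced in the dark, had 27882, 31476 and 29373 in nonmemory against 58534, 60016 and 57310 in Gen5 WT. The log2 fold change was -0.98 (SE 0.06, adjusted p = 0.000768), and plants within each group were close together. BCAT-2, a branched-chain amino acid transaminase, had 35.7, 19.4 and 25.1 against 117, 108 and 81.4 (log2 fold change -1.93). The sugar transporter STP4 was lower by 0.76. In Gen1 WT plants the means were 22191 for DIN10 and 8490 for STP4, nearer to nonmemory, and 112 for BCAT-2, nearer to Gen5 WT. Without Gen5 WT replicate 2 the list had 1 lower gene. ERD5 had 728, 772 and 899 against 1842, 2084 and 2436 (log2 fold change -1.41, SE 0.12, adjusted p = 0.00251). AT4G33150, annotated as the bifunctional enzyme of lysine breakdown and chosen after its values were seen, had 642, 561 and 754 against 1309, 1533 and 1349 (log2 fold change -1.1). The calls of DIN10, ERD5 and AT4G33150 held whichever plant was left out.

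Auxin genes, 77 tested, had 3 higher, none lower and a median of 0.12. These were SAUR24, the early auxin repressor gene IAA1 and HB-2 (ATHB2), a shade-induced homeobox factor, with log2 fold changes of 0.90, 0.79 and 0.51. None of these 3 was called in every fit that left out a plant, and the list had 1 higher gene in 4 of the 6 fits, those without nonmemory replicate 3 or any 1 Gen5 WT plant. Of 10 HD-ZIP II factors, the family of HB-2, HAT3 was also higher (0.67), though not without Gen5 WT replicate 1 (0.64) or 2 (0.71), while HAT1 was lower, with 1845, 2254 and 1287 against 4539, 5002 and 4795 (log2 fold change -1.41, SE 0.17, adjusted p = 0.00723). Among 53 tested genes annotated as SAUR-like, 4 were higher and 1 lower (9.43% called against 1.7% of all genes).

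The 12 largest falls also held genes of other functions. AACT1, annotated as an anthocyanin acyltransferase, had 32.0, 56.2 and 49.3 against 195, 242 and 107 (log2 fold change -1.98, adjusted p = 0.0225). The mitochondrial dicarboxylate carrier DIC3 had 164, 267 and 241 against 744, 753 and 744 (-1.74, SE 0.16, adjusted p = 0.00295). AT3G11402, a C1 domain protein, was even within both groups, with 398, 379 and 381 against 1333, 1180 and 1514 (-1.80, SE 0.10, adjusted p = 0.000433). AT1G69760 and AT5G19190, of unassigned function, were lower by 1.89 and 1.67. Of these, AACT1 was called in 1 of the 6 fits that left out a plant, that without Gen5 WT replicate 3, and AT5G19190 was not called without Gen5 WT replicate 2 (-1.66).

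Several lists had 1 call in each direction or 1 call in all. The clock-related list, 38 tested, had CDF3 higher (0.56) and COL1 lower (-0.72). The nitrate list, 36 tested, had the repressors LBD37 higher (0.60) and LBD39 lower (-0.51). Heat shock genes, 39 tested, had DREB2A and AT-HSFB2B (0.71) higher, against 4 genes higher without nonmemory replicate 3, 1 without nonmemory replicate 1 and none without nonmemory replicate 2 or any 1 Gen5 WT plant. The salicylate list, 34 tested, had 1 call, NIMIN1, an interactor of the salicylate receptor NPR1, higher by 0.64, while 21 members were below 0 and the median was -0.39. Without Gen5 WT replicate 3 this list had 1 higher and 9 lower, without nonmemory replicate 2 or Gen5 WT replicate 2 it had none, and DESeq2 called 2 higher and 6 lower. Single lower calls were the glucosidase BGLU18 (-0.70) of 40 glucosinolate genes and the glycerol-3-phosphate transporter gene G3Pp1 (-0.92) of 27 phosphate starvation genes. Others were the ethylene synthesis gene ACS8 (-1.38) of 27 ethylene genes and XTH24 of 32 senescence genes. The lists of this paragraph had 2.5% to 5.56% called, against 1.7% of all tested genes. Below 0 lay 26 senescence members (median -0.21), 21 phosphate starvation, 21 glucosinolate and 15 ethylene members. The senescence list had 3 lower without Gen5 WT replicate 3 and again with DESeq2. Of the 9 genes named here other than DREB2A and XTH24, COL1 alone was called in all 6 fits that left out a plant.

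Of the 28 lists, 12 had no call, counting flowering time (36 tested), photosynthesis (60), DNA methylation and silencing (59), DNA replication and histones (60), flavonoid (29), gibberellin (26), vascular and stem (25), iron (28), copper (26), sulfur (19), floral organ (7) and root (7). Their medians ran from -0.19 for root to 0.23 for iron, beside 0.01 over all tested genes. Above 0 lay 51 of 60 DNA replication and histone genes, 44 of 60 photosynthesis genes and 41 of 59 DNA methylation genes. On the flavonoid list 19 of 29 lay below 0. Of the 377 genes tested on these 12 lists, 80 had an unadjusted p under 0.05 in edgeR, against 4016 of all 19739 tested genes (20.3%). Of these 80, 54 lay above 0 and 26 below. DESeq2 called 4 higher and 4 lower on these lists, of 631 calls in all. In fits that left out a plant, 7 of the 12 lists had a call, with no more than 1 in any fit. The clock genes CCA1 and GI had log2 fold changes of -0.40 and 0.11, and the maintenance DNA methyltransferase gene MET1 had 0.05 (SE 0.06, adjusted p = 0.698). FLC, the flowering repressor, had 58.3, 8.72 and 43.5 in nonmemory and 0, 47.4 and 54.0 in Gen5 WT, and the groups overlapped. PR1, a marker of salicylate defence, had 2485, 1241 and 625 against 13403, 3339 and 1401, a log2 fold change of -2.06 with an SE of 0.80 (adjusted p = 0.207), and was not called. CHS (TT4), the entry enzyme of flavonoid synthesis, had 3178, 12088 and 7024 against 11699, 7685 and 15391 and was not called (log2 fold change -0.64). RBCS1A, the Rubisco small subunit, had a value of 0.05. AP3, a petal and stamen gene, had no plant above 5.92 normalized counts and was not tested. All lists together held 53 of the 335 called genes, so that 282 belonged to none of them.

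**Figure D5:**
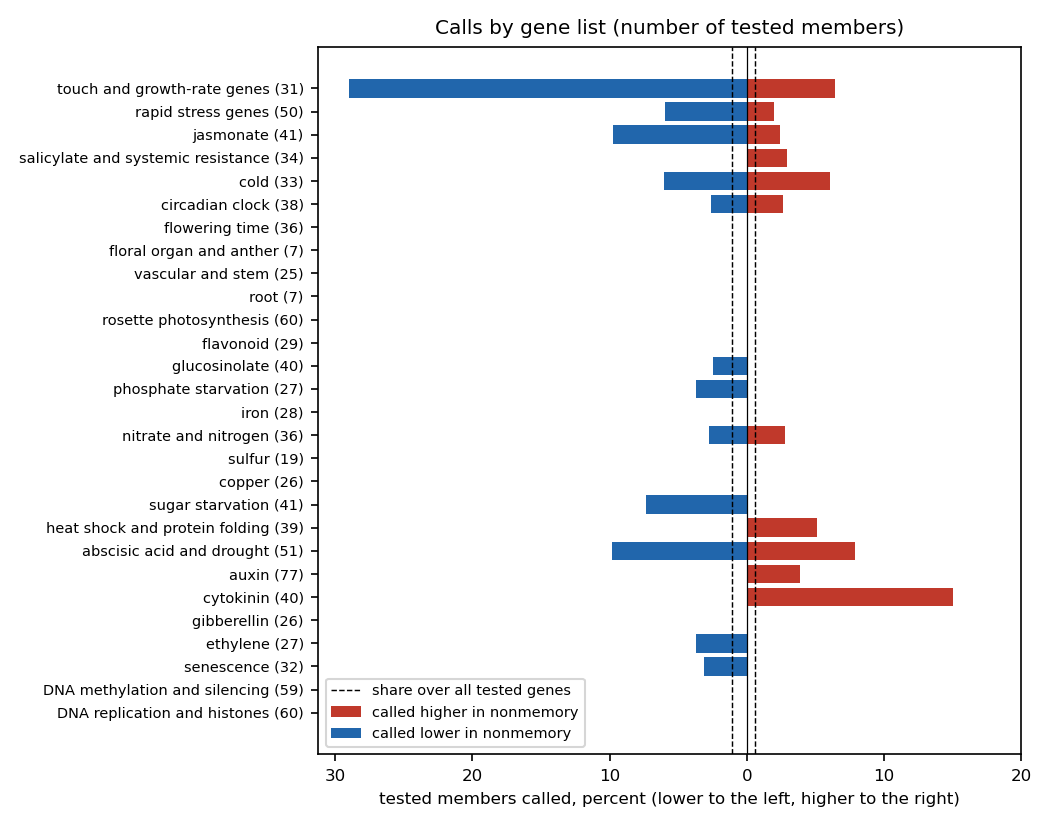
Share of the tested members of each of 28 gene lists called higher (red, to the right) and lower (blue, to the left) in nonmemory, in percent, with the number tested in brackets. Dashed lines mark the shares over all tested genes, 0.578% higher and 1.12% lower, and the touch, abscisic acid and cytokinin lists have the most calls, 35.5%, 17.6% and 15% of their members.

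Among the 282 genes outside the lists, some were grouped by their annotated product after the values were seen. NAC domain factors had 3 higher of 62 tested (NAC102, RD26 and ATAF1), of which NAC102 was on no list. Genes whose product name is heat shock transcription factor had 2 higher of 12, HSFC1 and HSFA6B. That count leaves out AT-HSFB2B, also called higher, whose product name differs. Peroxidases had 3 lower of 24, major facilitator transporters 5 lower of 97, and EXO70 exocyst subunits, which tether vesicles at the plasma membrane, 2 lower of 14. Other groups were mixed, with 3 higher and 3 lower of 49 AP2/ERF factors and 2 and 2 of 96 UDP-glucosyl transferases. RING/U-box proteins had 3 higher and 1 lower of 213 (1.88%). Over all tested genes 1.7% were called. RAP2.4 (AT1G78080), an AP2/ERF factor of light and ethylene response, had 12639, 16347 and 17832 in nonmemory against 7995, 8176 and 7768 in Gen5 WT (log2 fold change 0.97, SE 0.11, adjusted p = 0.00673). PPCK1, the kinase of phosphoenolpyruvate carboxylase, had 5762, 4570 and 4215 against 2581, 2393 and 2457 (log2 fold change 0.97). GTL1, a repressor of trichome cell growth, had 7362, 7508 and 6955 against 12948, 13007 and 14112 (log2 fold change -0.87, SE 0.06, adjusted p = 0.000768). Among anion transport genes, the channel SLAH3 was lower by 1.23 and the vacuolar nitrate exchanger CLC-A by 0.59. RAP2.4, PPCK1, GTL1 and CLC-A were called in all fits that left out 1 plant. SLAH3 was called only without nonmemory replicate 1 or 3, and NAC102 only without nonmemory replicate 1. Called genes with the same direction that were neighbours among the tested genes of a chromosome formed 4 pairs. Untested genes could lie between them. Among these pairs were JAZ6 with EXO70D1 and the peroxidase gene AT4G37530 with LBD39. In the 250 bases before the gene start in TAIR10.1, on both strands, ACGTG (the core of the abscisic acid response element) was present in 23.4% of all tested genes, 25.4% of the higher and 19.9% of the lower. CCGAC (the core of the drought and cold element) was present in 13.1%, 14.9% and 10.9%, so that both were near the share of all genes.

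Gen1 memory plants were also compared with Gen5 memory plants, a comparison that shares no plant with the first. There edgeR called 0 of 19704 genes (0%), with 352 (1.79%) at an unadjusted p under 0.05 against 4016 (20.3%) for nonmemory against Gen5 WT. DESeq2 called 6 genes there, and none of these was among the 335. Memory plants were further apart within groups, with a median SD of 0.136 in Gen1 and 0.156 in Gen5 on the log2 scale. Whether the 2 comparisons differ was not tested. Of the 335 genes 330 were tested in memory, and 171 (51.8%) had the same sign, Gen1 over Gen5, as in nonmemory against Gen5 WT, with a median of 0.06 for the higher and 0.01 for the lower genes. Type-A regulators had a median of 0.02 there and XTH enzymes one of 0.06. EXO, with a mean of 32574 normalized counts in Gen5 WT and 7970 in nonmemory, had 217 and 183 in Gen1 and Gen5 memory, and PYL5 had 97.6 and 138.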

How the data were processed

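RNA-seq libraries (TruSeq v2, which does not mark strand) were made from separate plants. The authors deposited raw counts per gene, from uniquely mapped reads counted with QoRTs, and the submitters' processing notes name STAR 2.7.0a, DESeq2 and TAIR10. Antisense partners cannot be told apart, and near-identical copies are undercounted. Rows naming no gene (no feature 0.727% to 0.802%, ambiguous 0.257% to 0.279%), organelle rows, all at 0, and 1144 rows of other RNA were left out. All 32548 nuclear identifiers were found in the TAIR10.1 annotation, the source of symbols and coordinates.

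The 6 plants were compared in edgeR 4.0.16 (R 4.3.3) by its quasi-likelihood test, after filterByExpr and TMM scaling, with Benjamini-Hochberg adjustment and no covariates. The SE is the log2 fold change over the root of F. Normalized counts are scaled by TMM over all 15 plants. Named genes were MSH1, the 12 largest rises and 12 largest falls called (mean of at least 100, groups apart), up to 4 called genes a list, and 8 known genes of other lists. No gene was at most 10 in each plant of one group and at least 50 in each of the other. Members and lists were chosen with earlier results of these data known. Lists are described by counts and medians, with no set test.

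On simulated counts for nonmemory against Gen5 WT (19618 genes tested), edgeR recovered 57 of 100 genes changed 1.5-fold and 75 of 100 changed 2-fold, with 9 false calls. Alternatives were RLE factors, DESeq2 1.42.0, other filters and thresholds, all 15 plants in 1 fit, a replicate block, all rows, each plant left out and, added after seeing the data, length and GC offsets (20 bins). Summaries used Python 3.11.15, numpy 2.4.6 and pandas 2.3.3, and plots matplotlib 3.10.9.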

Additional observations from a re-analysis of the deposited data

How the results depend on the processing

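The 335 calls (114 higher, 221 lower) became 336 with RLE factors, 404 with no expression filter, 336 with at least 10 counts in every plant, 336 with all rows, 339 with length offsets and 334 with GC offsets, the last 2 chosen after seeing the data. DESeq2 called 631 (232 higher, 399 lower), including 333 of the 335. All 15 plants in 1 fit gave 170 (75 and 95), including 160 of the 335. That fit kept 5 of 5 calls of type-A regulators, 3 of 3 of PYR/PYL receptors and 3 of 3 of fasciclin-like proteins. It kept 2 of 3 of the EXO family, 3 of 4 of DREB factors and 2 of 4 of alpha-expansins. For arabinogalactan proteins it kept 2 of 6, for XTH enzymes 2 of 9 and for the touch list 4 of 11. A log2 fold change over 1 gave 100 (36 and 64), no fold threshold 672 (234 and 438), and an adjusted p under 0.01 gave 116 (22 and 94). Fits without 1 plant gave 115 to 398 calls, 22 to 136 higher and 93 to 303 lower. In memory plants, Gen1 against Gen5, DESeq2 called 6, all 15 plants in 1 fit 1, fits without 1 plant 0 to 1, and the other alternatives 0. Of the 79 called genes followed one by one, 20 kept their call in every alternative and no direction reversed.

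With the replicate number as a block, 166 genes were called (38 higher, 128 lower) and 0 in memory. The numbers do not pair the plants, since the deviations of same-numbered nonmemory and Gen5 WT plants had correlations of -0.289, -0.0257 and -0.108, and no plant correlated best with its own number.

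With 3 plants a group, small differences are missed: in simulated data 57 of 100 changes of 1.5-fold were found. Values of low genes, such as HSFA6B and CBF1, rest on few counts. Generation and descent cannot be told apart, and no source used here says whether the 2 groups were grown together.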

Other observations

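Rows for other RNA, which entered no test above, took 0.00466% to 0.00527% of counts in the nonmemory plants and 0.00607% to 0.00638% in the Gen5 WT plants, with no overlap between the groups.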
